A study of Mus musculus with 2 samples.

Results

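The colony-stimulating factors and their receptors were followed as 8 genes, which made up the whole list out of 27998 genes in the files. They were the 4 ligand genes Csf1, Il34, Csf2 and Csf3 and the 4 receptor genes Csf1r, Csf2ra, Csf2rb and Csf3r. All 8 were taken by name, with no measured value used to choose them. Csf2rb2, a near copy of Csf2rb in the mouse genome, was measured beside them.

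The samples were ear skin of male ICR mice of 7 to 8 weeks, taken apart into single cells and sequenced as 1 control library and 1 library of allergic contact dermatitis (ACD). For ACD, mice were sensitized on the back with 1.0% DNFB (dinitrofluorobenzene), a hapten that binds skin proteins, and on day 6 their ears were challenged with 0.2% DNFB. The ACD ears were collected 60 hr after that challenge. How many mice entered each library is not given in the sources used here, and with 1 library in each group no difference below has a replicate check or a p-value. Every interval is a 95% interval that covers counting error only.

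Colony-stimulating factors are secreted proteins that keep myeloid cells alive and make them grow, mature and act. CSF1 (M-CSF) and IL34 both bind the receptor tyrosine kinase CSF1R, which macrophages, monocytes and Langerhans cells depend on, and IL34 made in the epidermis is known to maintain Langerhans cells. CSF2 (GM-CSF) binds CSF2RA, and signals through CSF2RB, a beta chain that the receptors for IL3 and IL5 share. CSF3 (G-CSF) binds CSF3R and drives the production and release of neutrophils. T cells are a known source of CSF2 in contact dermatitis, and fibroblasts and endothelium are known sources of CSF1 and CSF3.

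In the GENCODE M21 annotation of GRCm38, Csf1 lies at chr3:107741048-107760469, Il34 at chr8:110741829-110805924, Csf2 at chr11:54247271-54249667 and Csf3 at chr11:98701263-98703629. The receptor genes Csf2ra at chr19:61223957-61228429, Csf2rb at chr15:78325752-78353847 and Csf3r at chr4:126024550-126044440 lie apart from them, and Csf2rb2 at chr15:78282507-78305721 lies beside Csf2rb. AU-rich stretches of a 3′ untranslated region (UTR), built of the pentamer ATTTA, are the known docking sites of ZFP36 proteins, which shorten the life of cytokine mRNAs. The stretch of 30 bases with the most copies is shown for the 2 ligand genes whose mRNA held the most of them, because the level measured here is that of the mRNA. Both are read 5′ to 3′ on the strand of the transcript, from the last exon of the gene, and capitals mark each ATTTA.
Csf2, chr11:54247329-54247358, minus strand, exon 4 of 4: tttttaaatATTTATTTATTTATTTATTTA
Csf3, chr11:98702984-98703013, plus strand, exon 5 of 5: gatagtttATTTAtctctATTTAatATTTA
The Csf2 stretch held 5 overlapping copies and the Csf3 stretch 3. The Csf2 3′ UTR of 317 bases held 9 copies in its last 300 bases, and 0.0130% of 15390 annotated 3′ UTRs held as many in that window, whereas 45.3% held at least 1. The longer form ATTTATTTA, which overlaps the pentamer, occurred 5 times in Csf2 and in 1.59% of all the UTRs. Over the whole 3′ UTR, Csf3 held 6 copies of the pentamer in 669 bases, Csf1 held 4 in 2111 and Csf1r held 3 in 1669. Il34 held 1, and Csf2ra, Csf2rb and Csf3r held 0. No share of all UTRs was computed for whole lengths. In the window of the last 300 bases, Csf3 and Csf1r held 0 copies. Csf1 held 3 there, and 5.48% of the UTRs held at least as many. These are matches of letters, and no decay rate was measured.

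The deposited matrices held 12895 control and 13163 ACD barcodes with 99037698 and 126566870 unique molecular identifiers (UMIs, each a tag for 1 captured mRNA). After the filter of the methods, 12213 and 11665 cells were left, with median depths of 6850 and 7447 UMIs, and 47 of the kept barcodes occurred in both libraries. Cells were grouped without the 8 genes, and each group was called "like" a cell type from its markers. Cells that stayed unnamed made up 23.4% of control and 20.03% of ACD cells, and cells with the markers of 2 types, called mixed, made up 1.48% and 3.47%. T cells, NK cells and innate lymphoid cells (T/NK/ILC-like) went from 834 to 3344 cells, dermal fibroblasts (dFB-like) from 3230 to 1159, mononuclear phagocytes from 85 to 316, neutrophils from 4 to 72 and basophils from 9 to 270. The median depth of dFB-like cells was 7982.5 UMIs in control and 12014 in ACD, and that of endothelial-like cells 4729.5 and 10036. A level below is the UMIs of a gene per 1000000 UMIs of a class, so it compares a gene between classes and libraries and is not a level per cell. In a whole library, more cells of a type and more mRNA in each cell cannot be told apart.

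Counted over all kept cells, Csf2, Csf2rb and Csf3r stood out in the ACD library. Csf2 was at 1.77 UMIs per 1000000 in control and 14.8 in ACD, with 163 and 1476 UMIs. Csf2rb was at 3.16 and 26.6, and Csf3r at 0.0759 and 3.38, with 7 and 337 UMIs. Csf3 and Csf2ra differed less, at 1.94 against 3.86 and at 4.12 against 7.43. Csf1 was lower in ACD, at 114 against 84.2, and Il34 likewise, at 25.5 against 18.6. Csf1r was at 7.98 and 8.47, a log2 ratio of 0.085 with an interval from -0.059 to 0.23. The classes that held these UMIs also differed between the libraries.

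**Figure D1:**
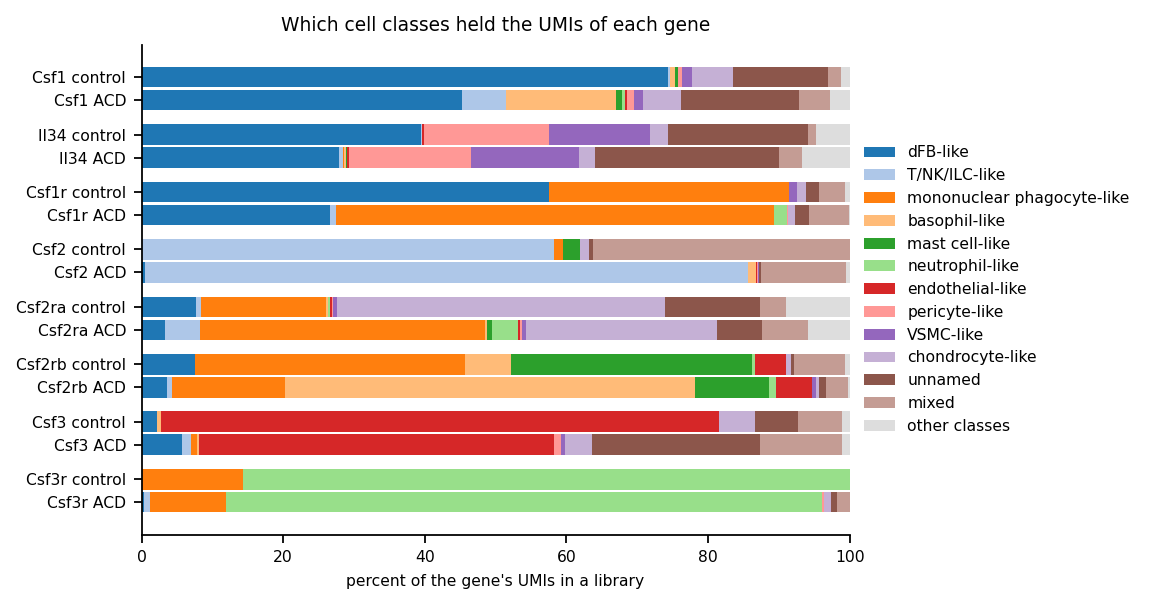
Stacked bars give the percent of each gene's UMIs (x axis) that fell in each cell class, with 1 bar for the control and 1 for the ACD library of each of the 8 genes. T/NK/ILC-like cells held 58.3% of the Csf2 UMIs in control and 85.2% in ACD, and basophil-like cells went from 6.53% to 58.0% of the Csf2rb UMIs.

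Csf2, the ligand that T cells are known for, came mainly from lymphocytes. T/NK/ILC-like cells held 95 of the 163 Csf2 UMIs in control (58.3%, interval 50.3 to 65.9) and 1257 of 1476 in ACD (85.2%, 83.2 to 86.9). Most of the rest lay in mixed cells, with 36.2% and 11.99%. The Csf2 level of T/NK/ILC-like cells was 28.1 UMIs per 1000000 in control and 59.5 in ACD, with the log2 ratio at 1.08 (0.78 to 1.40). So the Csf2 level of the class as a whole was higher in ACD, in addition to there being more of these cells. Different clusters held the class in the 2 libraries. The cluster led by Il17a and Cd163l1 held 64.9% of it in control, and the cluster led by Cd8a, Ms4a6b and Ccl5 held 36.6% in ACD. CD4+ T-like cells numbered 39 of 834 in control and 586 of 3344 in ACD. The part of this makeup in the level of the class was not tested.

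Within these cells the Csf2 level depended on the subset. CD4+ T-like cells had 5 UMIs in 39 control cells, 36.8 per 1000000 (11.96 to 85.9), and 725 UMIs in 586 ACD cells, 213 per 1000000 (197 to 229). That made them the source of 49.1% of all Csf2 UMIs in the ACD library, and the highest cell held 46 UMIs. CD8+ T-like cells had 1 UMI in 26 control cells, 5.63 per 1000000, and 214 UMIs in 769 ACD cells, 32.8 per 1000000, with 41 UMIs in 1 cell. The gamma delta T cells that carry Il17a (gdT-like) differed in makeup. Their sub-cluster led by 5830411N06Rik and Ramp1 had 317 control and 210 ACD cells, and the one led by Il17f and Il17a had 12 and 282. In gdT-like cells as a whole, Csf2 was at 14.0 in control and 46.7 in ACD, with the log2 ratio at 1.74 (1.12 to 2.42). In dendritic epidermal T cells (DETC-like) the direction was the opposite, at 33.8 in control and 13.6 in ACD, with the log2 ratio at -1.32 (-2.57 to -0.12), and 10 of the 16 control UMIs lay in 1 cell. A sub-cluster led by Sncg and Bmp2, closest to type 2 innate lymphoid cells but left unnamed, was at 69.6 and 91.5, and the intervals of its levels overlapped. In control it held 49 UMIs in 207 cells, more than any other T/NK/ILC-like sub-cluster. Regulatory T (Treg-like) cells had 0 UMIs in 41 control cells and 10 in 493 ACD cells, at 4.02 per 1000000. NK/ILC1-like cells had 50 UMIs in 611 ACD cells, at 16.2, and 50 ACD cells of a sub-cluster led by Il2 and Ccl1, with no control cell, were at 68.2. In ACD, the order was therefore CD4+ T-like first, then the sub-clusters led by Sncg and Il2 and the gdT-like cells, whose neighbours in the order had overlapping intervals, then CD8+ T-like cells, and last NK/ILC1-like, DETC-like and Treg-like cells, of which DETC-like cells overlapped with both neighbours. Csf2 had been kept out of the clustering, and it still ranked among the leading genes of the CD4+ T-like cells.

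Counted by cells, with each cell thinned to 2000 UMIs and shallower cells left out, 4.26% of control and 4.94% of ACD T/NK/ILC-like cells had a Csf2 UMI. Without thinning, the shares were 6.35% and 9.96%, at median depths of 3491.5 and 5200 UMIs. Chondrocyte-like cells, which are not known to make Csf2, had thinned shares of 0.0318% and 0.0467% at median depths of 7539 and 9129. The thinned shares of the class had overlapping intervals, 2.95 to 5.94% and 4.22 to 5.75%, while the level per 1000000 UMIs differed. After thinning, 3 of 30 control and 13.6% of 575 ACD CD4+ T-like cells had a UMI, and 2.29% and 6.75% of gdT-like cells.

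Other cytokines were found in the Csf2 cells of the ACD library. Of 116 CD4+ T-like cells with a Csf2 UMI, 62.9% (53.5 to 71.7) also had one of Ifng, the type 1 cytokine, against 39.8% (35.3 to 44.4) of 470 without. Thinned to one depth the shares were 42.3% and 29.6%, and their intervals overlapped. Il13, a type 2 cytokine, was found in 19.0% of those with and 2.77% of those without Csf2, and after thinning in 11.5% (5.41 to 20.8) and 2.41% (1.25 to 4.18). Il13 was thus more common beside Csf2 also at equal depth. Il17a was found in 0.862% and 3.83% of these cells, and Il2 in 5.17% and 3.83%. In gdT-like cells, Il17a was found in 44.1% of 93 cells with Csf2 and 45.2% of 480 without.

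**Figure D2:**
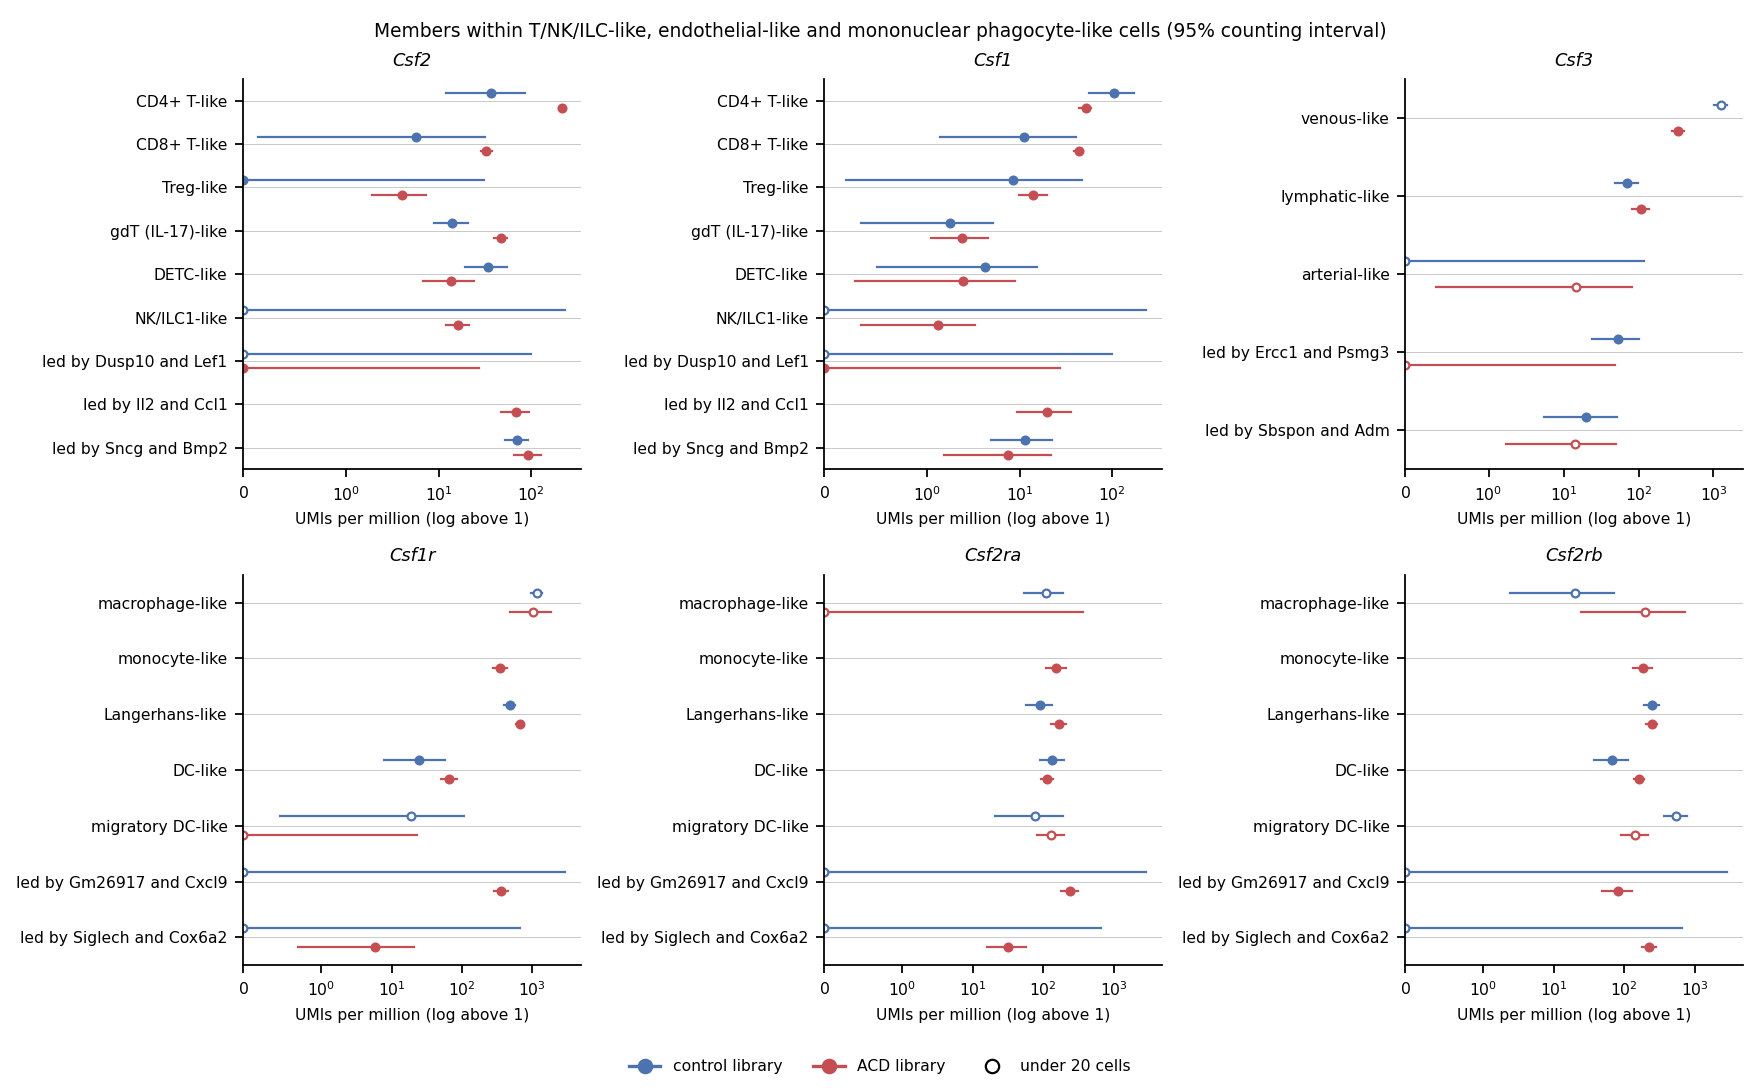
Points give the level of a gene in UMIs per 1000000 (x axis, logarithmic above 1) in each sub-cluster of the control (blue) and ACD (red) library, for Csf2 and Csf1 in lymphocytes, Csf3 in endothelial cells and 3 receptor genes in mononuclear phagocytes, with lines for the 95% counting interval and open points for under 20 cells. Csf2 was highest in CD4+ T-like cells of ACD, at 213, and Csf1r in macrophage-like cells, at 1142 in 18 control cells.

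In T/NK/ILC-like cells, 1.54% of 10330 genes with at least 50 UMIs were past a 2-fold difference upward in ACD and 1.41% downward, with 10 UMIs per 1000000 added on both sides. Of the 8 genes, Csf1 and Csf2 had enough UMIs, and 0 of these 2 were past 2-fold on that scale, at log2 differences of 0.87 each. Among genes known to act on Csf2 mRNA, 1 of 10 was higher and 1 of 10 lower. Bhlhe40, a transcription factor that T cells need to make CSF2, was at 121 and 258, and Il23r, a receptor whose ligand stimulates CSF2 production, was at 43.8 and 14.3. Of 14 genes that signal below the receptors, Stat5a was higher, at 15.7 against 44.3. The median log2 difference of the 10 genes was -0.16 and that of the 14 genes 0.049, beside -0.082 for all genes tested. On the Csf1r side 1 of 5 genes was higher, Tyrobp, at 43.8 against 262, and 1 lower, Sdc1, at 38.5 against 8.43, and 0 of 1 beta chain partners, 0 of 2 other growth factors and 0 of 2 granulocyte regulators were past 2-fold. In NK/ILC1-like cells, of which there were 5 in control and 611 in ACD, Tyrobp was a leading gene. Il23r was a leading gene of the gdT-like sub-cluster led by 5830411N06Rik, with 317 of 834 control and 210 of 3344 ACD cells. The part of these numbers in the levels of the class was not tested.

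Csf1, which feeds macrophages through CSF1R, was mainly a fibroblast gene. In dFB-like cells it was at 275 UMIs per 1000000 (269 to 281) in control and 263 (255 to 272) in ACD, from 7813 and 3798 UMIs. The log2 ratio was -0.063 (-0.12 to -0.0073). The level thus barely differed, while the share of all Csf1 UMIs that lay in dFB-like cells was 74.3% in control and 45.2% in ACD. After thinning, 37.3% of control and 38.4% of ACD dFB-like cells had a Csf1 UMI (74.8% and 83.7% unthinned). T/NK/ILC-like cells were at 1.03% and 3.55% (2.40% and 9.30% unthinned), but some of their subsets held Csf1, so they gave no background for this gene. Mononuclear phagocyte-like cells, taken instead after the values were seen, had a Csf1 UMI in 0 of 78 control and 0 of 223 ACD thinned cells, which allows shares of up to 3.85% and 1.35% (2.35% and 0.633% unthinned). Other definitions of the class gave a larger difference: with cells chosen by counts of marker genes the log2 ratio was -0.38, and with the unnamed clusters closest to fibroblasts included it was -0.32.

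Fibroblast sub-clusters differed in Csf1 more than the dFB-like class as a whole did between the libraries, and some of them also differed between the libraries. Of the dFB-like cells, 45.9% in control came from the cluster led by Cyp2f2 and Stmn2, and 38.5% in ACD from the cluster led by Cxcl9, Saa3 and Ccl19. Adventitial fibroblast-like cells were at 408 in 197 control cells and 197 in 24 ACD cells, a log2 ratio of -1.05 (-1.51 to -0.62). Preadipocyte fibroblast-like cells were at 289 and 219, a log2 ratio of -0.40 (-0.57 to -0.24), and reticular/papillary fibroblast-like cells at 346 and 381, with an interval of the log2 ratio from -0.15 to 0.41. The sub-cluster led by Saa3 and Lcn2, which encode acute-phase proteins, held 306 ACD and 4 control cells and was at 310.4 in ACD. Perifollicular fibroblast-like cells, led by Cxcl10 and Cxcl9, were at 289 in 294 ACD cells, with 1 control cell. Both of these ACD sub-clusters lay within the range of the others. The name perifollicular is uncertain here and below. Only 1 perifollicular marker, Coch, was among the leading genes, and a main cluster led by Coch and Crabp1 stayed unnamed. The paper assigns its fibroblasts high in Cxcl9 and Cxcl10 to preadipocytes.

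Basophil-like cells had the highest Csf1 level of any class. They were at 1336 (1046 to 1683) in 9 control cells and at 1002 (948 to 1058) in 270 ACD cells, a log2 ratio of -0.42 (-0.76 to -0.053), and 82.6% of the ACD cells had a Csf1 UMI (71.1% thinned). Markers of fibroblasts were high in the 9 control cells: the 7 dFB markers, all detected in both libraries, summed to 44065 UMIs per 1000000 in control and 4211 in ACD, beside 79415 and 57382 in dFB-like cells. The 6 basophil markers, also all detected, summed to 1299 and 4185. The part of these markers in the Csf1 level and its difference was not tested. Through their number, basophil-like cells held 0.685% of the Csf1 UMIs in control and 15.5% in ACD, more in ACD than any named class but dFB-like cells. Mast cell-like cells were at 269.9 and 203, with overlapping intervals. In 4 classes with little Csf1 the level was higher in ACD: 8.88 and 24.6 in T/NK/ILC-like cells (log2 ratio 1.47, 0.94 to 2.05), 8.79 and 23.4 in keratinocyte-like cells (1.41, 0.64 to 2.22), and 12.6 and 37.5 in melanocyte-like cells (1.57, 0.75 to 2.48). Endothelial-like cells were at 9.49 and 26.0, a log2 ratio of 1.45 (0.36 to 2.70) from 9 and 33 UMIs. Pericyte-like cells were at 37.4 and 56.4, and vascular smooth muscle (VSMC-like) cells at 56.5 and 38.6, so the 2 mural classes differed in opposite directions. Markers of other cells moved with Csf1 in some of these classes. In keratinocyte-like cells the 6 basophil markers summed to 0.799 and 19.6 UMIs per 1000000, with 5 and 3 of them at 0, the 12 phagocyte markers to 12.4 and 814, with 4 and 6 at 0, and the 8 neutrophil markers to 1.60 and 287, with 6 and 5 at 0. In melanocyte-like cells all 6 basophil markers were at 0 in both libraries, and the phagocyte markers summed to 26.8 and 633, with 6 and 5 at 0. In VSMC-like cells the 7 dFB markers, none at 0, summed to 13125 and 2604, and in pericyte-like cells to 9945 and 6868. What these markers contributed was not tested. Within lymphocytes in ACD, Csf1 was at 51.3 in CD4+ and 43.2 in CD8+ T-like cells, and at 1.30 in NK/ILC1-like and 2.40 in gdT-like cells. In control, CD4+ T-like cells were at 103, but 8 of their 14 UMIs lay in 1 cell.

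Il34, the other ligand of CSF1R, marked mural cells more than keratinocytes. Pericyte-like cells were at 278 (252 to 306) in control and 232 (207 to 259) in ACD, with the log2 ratio at -0.26 (-0.47 to -0.044), and 41.2% and 31.2% of them had an Il34 UMI after thinning (68.3% and 64.0% unthinned). T/NK/ILC-like cells, where Il34 is not known to be made, were at 0.129% and 0.124% after thinning. VSMC-like cells were at 125 and 105, a log2 ratio of -0.25 (-0.48 to -0.014). Keratinocyte-like cells, the known source of the Il34 that Langerhans cells use, were at 10.4 and 12.2 from 26 and 23 UMIs, with a log2 ratio of 0.23 (-0.64 to 1.10). That interval holds both 0 and a 2-fold difference upward, so a difference was not detectable at this depth. Schwann-like cells were at 61.4 and 48.2 and glia-like cells at 58.4 and 55.9.

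By number of UMIs, dFB-like cells were the largest Il34 source, with 39.5% in control and 27.9% in ACD. Their level was 32.6 and 35.9, a log2 ratio of 0.14 (-0.020 to 0.29). In control, Il34 and Csf1 were not highest in the same named fibroblasts. Adventitial fibroblast-like cells were at the top for Csf1 in control, among named subsets of at least 20 control cells, but not in ACD. They had 13 Il34 UMIs in control, 6.73 per 1000000, and 0 in ACD. Perifollicular fibroblast-like cells had 68.9 in ACD, and the sub-cluster led by Saa3 and Lcn2 had 17.2. The unnamed sub-cluster led by F13a1 and Cpm was at 63.4 and 75.4. An unnamed cluster led by Ccl11 was at 137 in control and 84.1 in ACD, with the log2 ratio at -0.70 (-1.23 to -0.19). In another, led by Tnn and Vcan, Il34 was at 2.90 in 82 control cells, from 1 UMI, and at 51.8 in 64 ACD cells, from 19 UMIs, a log2 ratio of 4.16 (1.51 to 9.54).

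**Figure D3:**
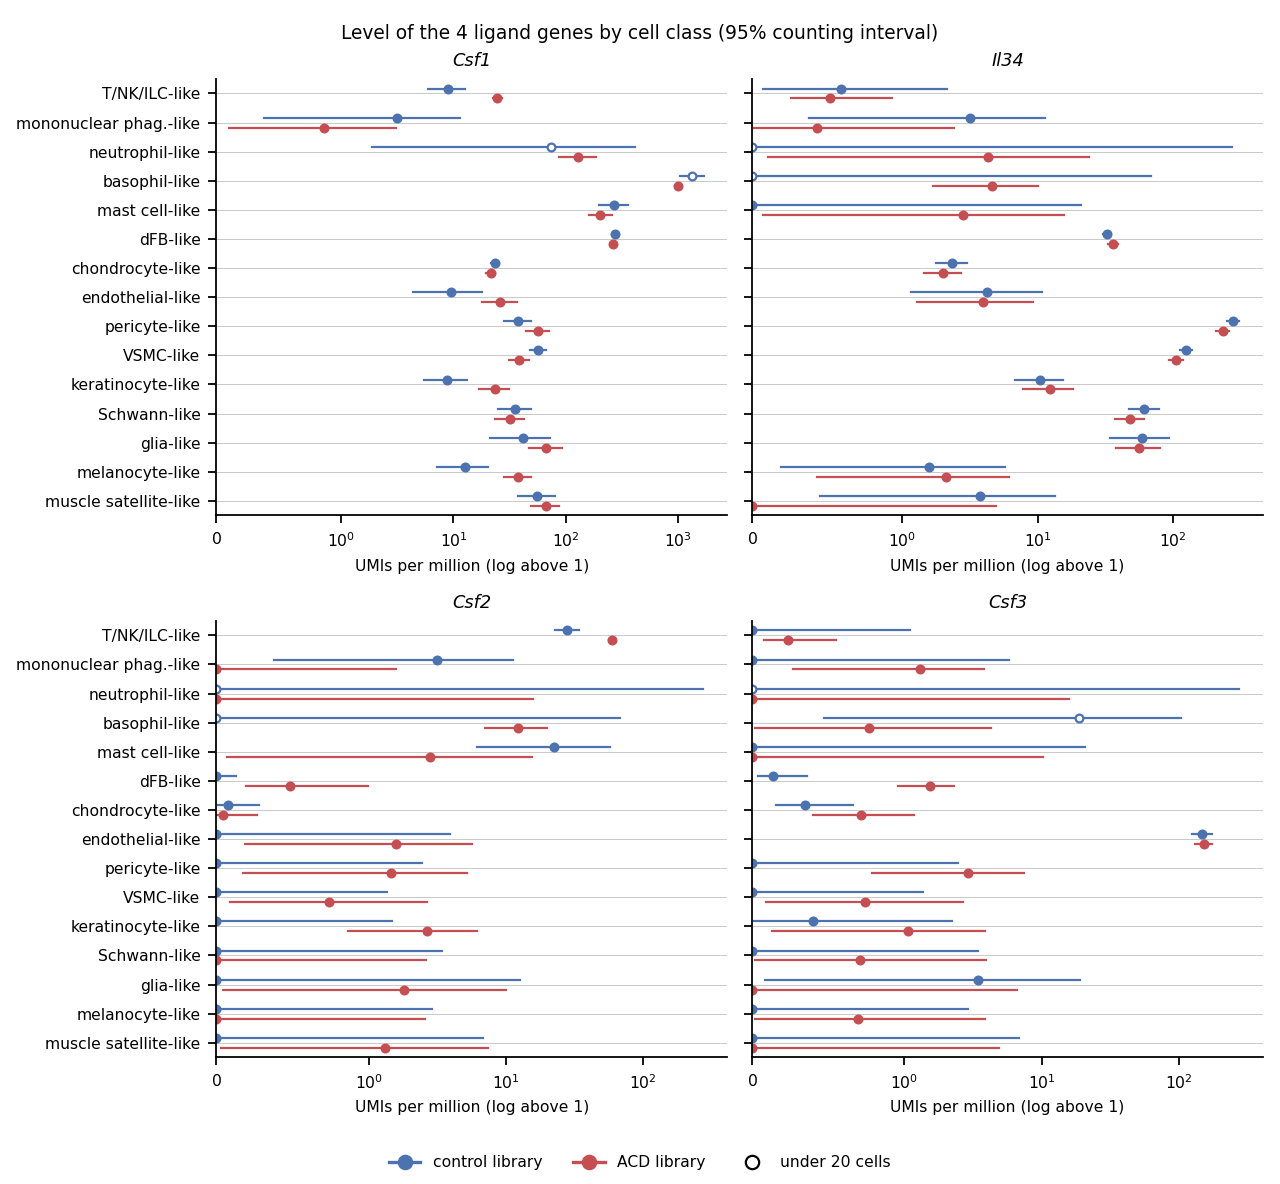
Points give the level of the 4 ligand genes in UMIs per 1000000 (x axis, logarithmic above 1) in each cell class of the control (blue) and ACD (red) library, with lines for the 95% counting interval and open points for under 20 cells. Among the named classes, Csf1 peaked in basophil-like cells at 1336 and 1002, Il34 in pericyte-like cells at 278 and 232, Csf2 in T/NK/ILC-like cells at 28.1 and 59.5, and Csf3 in endothelial-like cells at 149 and 152.

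Csf3, the neutrophil growth factor, was found in few cells. Endothelial-like cells held 78.8% of its 179 UMIs in control and 50.1% of its 385 UMIs in ACD. Their level was 149 (125 to 175) in control and 152 (131 to 175) in ACD, with the log2 ratio at 0.031 (-0.29 to 0.35), within counting error for the class as a whole. Different sub-clusters made up the class, and venous-like cells numbered 10 and 24. The lymphatic-like cells joined a sub-cluster led by Mmrn1, with 58 control and 5 ACD cells, and one led by H2-Ab1, with 1 and 55. Of the lymphatic markers, 2 were among the 10 leading genes of the Mmrn1 sub-cluster and 0 among those of the H2-Ab1 sub-cluster. The name of the latter is therefore less certain. In venous-like cells the level was 1243 in control and 335 in ACD, a log2 ratio of -1.89 (-2.29 to -1.49). The UMIs sat in single cells of the venous-like sub-cluster, which was led by Cxcl9, Selp and Ackr1 and also by the smooth muscle genes Acta2 and Tagln. In control, 3 of 10 venous-like cells held 95 Csf3 UMIs, as 52, 26 and 17, whereas in ACD 11 of 24 held 125, with 32 in the highest cell. Lymphatic-like cells, mostly of the Mmrn1 sub-cluster in control and of the H2-Ab1 sub-cluster in ACD, held 33 UMIs in 7 of 59 control cells. In ACD they held 65 in 8 of 60 cells, 36 of them in 1 cell. Thinned to 2000 UMIs, 7.63% of control and 9.32% of ACD endothelial-like cells had a Csf3 UMI (12.5% and 17.6% unthinned), against 0 of 774 and 0.0309% of T/NK/ILC-like cells. A count of 0 of 774 cells allows a share of up to 0.388%.

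Outside the endothelium, Csf3 was low and mostly seen in ACD. In dFB-like cells it was at 0.141 in control and 1.52 in ACD, from 4 and 22 UMIs, a log2 ratio of 3.44 (1.88 to 5.43). Of these, 8 ACD UMIs lay in 1 cell. The share of thinned cells was 0.0311% and 0.173%, beside 0 of 774 and 0.0309% of T/NK/ILC-like cells. Chondrocyte-like cells, a class not chosen beforehand as background for Csf3, were at 0.0954% and 0.187%. The unnamed cluster led by Wfdc2 and Ucma was at 0.838 and 5.97, with 8 and 55 UMIs, 34 of them in 1 ACD cell. The filter on cells bore on these values: with all deposited barcodes, clustered anew, endothelial-like cells of ACD held 815 Csf3 UMIs and the log2 ratio was 0.90, and dFB-like cells held 130 and the log2 ratio was 5.66.

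In endothelial-like cells, 2.59% of 5321 genes were past 2-fold upward and 1.26% downward. Of the 2 genes of the list with enough UMIs, Csf3 was not past 2-fold and Csf2rb was, upward. In dFB-like cells 0.961% of 11970 genes were past 2-fold upward and 0.142% downward, and 0 of the 5 with enough UMIs (Csf1, Csf1r, Csf2ra, Csf2rb and Il34) were. The median log2 difference of these 5 was 0.090, beside -0.025 for all genes tested. In dFB-like cells 0 genes of the 6 lists were past 2-fold, of 1 beta chain partner, 2 other growth factors, 12 signalling genes, 9 genes acting on Csf2 mRNA, 5 of the Csf1r side and 2 granulocyte regulators. In endothelial-like cells 1 of 2 beta chain partners (Csf2rb2) and 1 of 1 other growth factors (Kitl) were higher, 1 of 4 genes of the Csf1r side was lower (Maf, a transcription factor, at 514 and 242), and 0 of 11 signalling genes, 0 of 8 genes acting on Csf2 mRNA and 0 of 1 granulocyte regulators were past 2-fold. Kitl, the ligand of the mast cell growth receptor KIT, was at 49.6 and 113 in endothelial-like cells and at 130.4 and 97.0 in dFB-like cells. Il3ra, the alpha chain of the IL3 receptor, was at 21.1 and 41.6 in dFB-like cells, a log2 ratio of 0.98 (0.81 to 1.14).

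**Figure D4:**
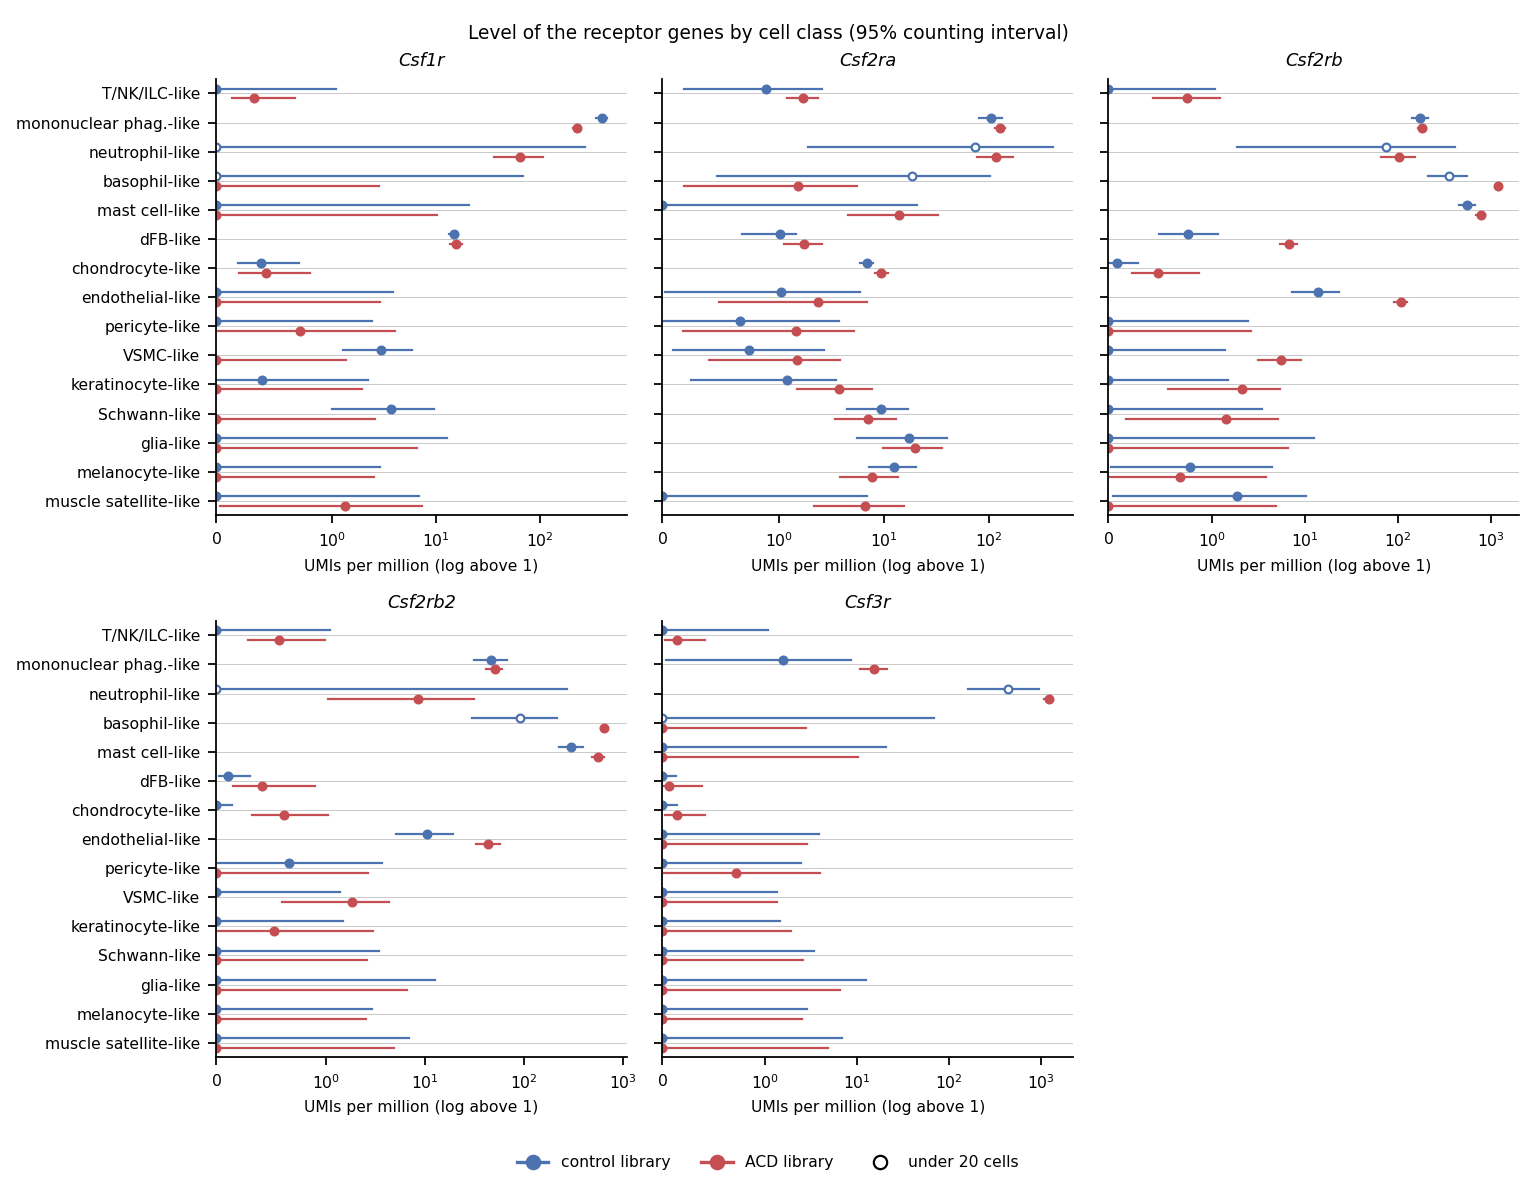
Points give the level of the 4 receptor genes and of Csf2rb2 in UMIs per 1000000 (x axis, logarithmic above 1) in each cell class of the control (blue) and ACD (red) library, with lines for the 95% counting interval and open points for under 20 cells. Csf1r peaked in mononuclear phagocyte-like cells at 392 and 225, Csf2rb in basophil-like and mast cell-like cells, and Csf3r in neutrophil-like cells at 445 and 1224.

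Csf1r, the receptor for both CSF1 and IL34, was lower in the mononuclear phagocyte-like cells of ACD. Their level was 392 (345 to 444) in 85 control cells and 225 (206 to 245) in 316 ACD cells, a log2 ratio of -0.80 (-1.02 to -0.58). After thinning, 41.0% of control and 30.04% of ACD cells had a Csf1r UMI (62.4% and 38.9% unthinned, at median depths of 6315 and 6660.5), and 93 ACD cells were too shallow to be thinned. In chondrocyte-like cells, which are not known to carry the receptor, the thinned shares were 0.0636% and 0.0467%. The makeup of the class differed. Macrophage-like cells, with the highest level given here, numbered 18 of 85 cells in control and 3 of 316 in ACD. Langerhans-like cells made up 37.6% of the class in control and 8.86% in ACD. A shallow sub-cluster led by Gm26917 and Cxcl9 made up 32.3% in ACD, and one led by Siglech numbered 1 control and 47 ACD cells. The part of this makeup in the lower level of the class was not tested. Within Langerhans-like cells the direction was the opposite, with 475 (396 to 565) in 32 control cells and 657 (583 to 737) in 28 ACD cells, a log2 ratio of 0.47 (0.16 to 0.78). Their median depth was 7050 and 14788.5 UMIs, and 54.8% and 85.7% of them had a Csf1r UMI after thinning. Macrophage-like cells were at 1142 in 18 control cells and 1003 in 3 ACD cells. The macrophage-like level in ACD was the highest of those given here, but it rests on 3 cells and is left out of the order. Of the others given, Langerhans-like cells came first in ACD. Then came the sub-cluster led by Gm26917 at 355 and monocyte-like cells at 349, which were level with each other, then dendritic cell-like (DC-like) cells at 65.2. A sub-cluster led by Siglech, with 47 ACD cells, is not placed in this order. The 27 monocyte-like cells, found in ACD alone, were led by Ccl21a, Il1a and Hp. Sub-clusters with a high and a low level were present in both libraries in different numbers.

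Another pool of Csf1r mRNA lay in fibroblasts. In dFB-like cells the level was 14.9 (13.5 to 16.4) in control and 15.6 (13.6 to 17.8) in ACD, far under that of phagocytes. Because of their number, dFB-like cells held 57.5% of all Csf1r UMIs in control and 26.7% in ACD. The shares of cells with a UMI after thinning were 2.15% and 2.69% (9.598% and 12.4% unthinned), above those of chondrocyte-like cells. In control, 8.71% of the 310 dFB-like cells with a Csf1r UMI also had a UMI of any of 12 phagocyte markers, and 8.39% of the 2920 without. In ACD these shares were 49.3% of 144 and 42.2% of 1015, with a list that includes the antigen presentation genes Cd74 and H2-Ab1. The intervals of each pair overlapped, and the cells with a Csf1r UMI were deeper, at medians of 11314.5 against 7755 UMIs in control and 16241 against 11159 in ACD. Among sub-clusters, that led by F13a1 and Cpm was at 24.7 and 54.3, a log2 ratio of 1.14 (0.51 to 1.73), the one led by Hbb-bs and Hba-a1 was at 37.2 and 29.9, and preadipocyte fibroblast-like cells were at 5.83 and 8.81. Those sub-clusters with hemoglobin genes in front also carried RNA that erythroid cells make, and its part in the level was not tested.

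In mononuclear phagocyte-like cells, 3.24% of 5795 genes were past 2-fold upward and 2.67% downward, and 0 of the 3 members with enough UMIs were. With 10 UMIs per 1000000 added, Csf1r was at a log2 difference of -0.78, Csf2ra at 0.26 and Csf2rb at 0.061. On the Csf1r side of the pathway, Maf, a transcription factor of macrophages, was lower, at 169 and 27.6. Macrophage-like cells numbered 18 of 85 in control and 3 of 316 in ACD, and their part in this difference was not tested. Socs3, a feedback inhibitor of cytokine receptors, was at 116 and 331, as the 1 of 14 signalling genes past 2-fold. Of 9 genes acting on Csf2 mRNA, Zfp36l1, which belongs to the family of proteins that bind AU-rich stretches, was lower, at 1144 and 539, and Bhlhe40 higher, at 87.9 and 193. None was past 2-fold of 2 beta chain partners, 1 other growth factor and 2 granulocyte regulators (0 in each).

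Csf2ra, the chain that gives the CSF2 receptor its specificity, was at 105 (81.5 to 133) in mononuclear phagocyte-like cells of control and 128 (114 to 144) in ACD. The log2 ratio of 0.29 (-0.099 to 0.69) was within counting error, and 21.8% and 21.5% of thinned cells had a UMI (54.1% and 43.7% unthinned). Langerhans-like cells were at 89.0 and 166, a log2 ratio of 0.90 (0.22 to 1.63), and DC-like cells at 136 and 114, with overlapping intervals. In ACD, the sub-cluster led by Gm26917 and Cxcl9 was at 238, monocyte-like cells were at 154 and neutrophil-like cells at 116. The gene was thus spread over all the phagocyte subsets of ACD with at least 20 cells, at the least 31.8, in a sub-cluster led by Siglech.

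Chondrocyte-like cells, the largest named class in ACD after T/NK/ILC-like cells, also held Csf2ra UMIs. Their level was low, 6.84 (5.87 to 7.93) in control and 9.45 (8.18 to 10.9) in ACD, with at most 3 UMIs in a cell. They nevertheless held 46.3% of the Csf2ra UMIs in control and 26.9% in ACD. After thinning, 1.05% and 1.96% of them had a UMI, so they gave no background for this gene. VSMC-like cells, taken instead after the values were seen, had 0 of 435 control and 0 of 248 ACD thinned cells with a UMI, which allows shares of up to 0.690% and 1.21% (0.227% and 1.205% unthinned).

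Csf2rb, the signalling chain shared by the receptors for CSF2, IL3 and IL5, was foremost a gene of basophils and mast cells. Basophil-like cells were at 353 (212 to 551) in 9 control cells and 1181 (1122 to 1241) in 270 ACD cells, a log2 ratio of 1.74 (1.10 to 2.48). The control cells were those with dFB markers at 44065 UMIs per 1000000 against 4211 in ACD and basophil markers at 1299 against 4185, and the part of these in the Csf2rb ratio was not tested. Mast cell-like cells were at 557 and 774, a log2 ratio of 0.48 (0.14 to 0.82). In them the 7 dFB markers, none at 0, summed to 11154 and 1169 and the 7 mast cell markers to 36296 and 40569.8, and their part was likewise not tested. After thinning, 77.4% of the ACD basophil-like cells had a Csf2rb UMI (91.1% unthinned), against 0.187% of chondrocyte-like cells. In these 2 classes Csf2ra had few UMIs, 1 in control and 2 in ACD basophil-like cells, and 0 and 5 in mast cell-like cells. Il3ra, the partner chain for IL3, was at 37.1 in control and 63.8 in ACD in basophil-like cells, and Il5ra had 0 UMIs there in both libraries.

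In mononuclear phagocyte-like cells, Csf2rb was at 174 (143 to 209.7) in control and 182 (165 to 200.3) in ACD, with the log2 ratio at 0.064 (-0.24 to 0.38). The subsets differed more: DC-like cells were at 67.8 and 165, a log2 ratio of 1.28 (0.49 to 2.19), migratory DC-like cells at 547 in 6 control and 143 in 15 ACD cells, and Langerhans-like cells at 245 and 246. The sub-cluster led by Siglech and Cox6a2, with 47 ACD cells, was at 228. Both chains of the CSF2 receptor were found together in 25.9% of control and 28.5% of ACD mononuclear phagocyte-like cells, and in 5.13% and 4.48% after thinning. Csf1r and Csf2rb were found together in 31.8% and 22.2%, and in 12.8% and 6.28% after thinning.

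In endothelial-like cells Csf2rb was higher in ACD. On the scale with 10 UMIs per 1000000 added it was past 2-fold upward, as 1 of 2 members with enough UMIs, beside 2.59% of all genes tested there. In the other classes tested, 0 of 2 members with enough UMIs were past 2-fold in T/NK/ILC-like, 0 of 5 in dFB-like and 0 of 3 in mononuclear phagocyte-like cells. The Csf2rb level of endothelial-like cells was 13.7 (7.30 to 23.4) in control and 107 (89.8 to 127) in ACD, from 13 and 136 UMIs, a log2 ratio of 2.96 (2.14 to 3.91). Venous-like cells carried 127 of the 136 ACD UMIs, in 23 of 24 cells, and were at 118 in 10 control and 340.2 in 24 ACD cells, at median depths of 6940 and 15105. After thinning, 2 of 10 control and 37.5% of 24 ACD venous-like cells had a UMI, and their intervals overlapped. Markers of other cells moved in the same direction in the class: the 6 basophil markers summed to 1.05 UMIs per 1000000 in control and 14.2 in ACD, with 5 and 2 of them at 0, and the 12 phagocyte markers, which include antigen presentation genes, to 50.6 and 1381, with 6 and 4 at 0. Their part in the Csf2rb level was not tested. The 7 mast cell markers summed to 3.16 and 3.93.

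In dFB-like cells Csf2rb was at 0.774 in control and 6.72 in ACD, from 22 and 97 UMIs, a log2 ratio of 3.12 (2.44 to 3.86). Of the ACD UMIs, 54 lay in 23 perifollicular fibroblast-like cells and 37 in 10 cells of the sub-cluster led by Saa3 and Lcn2. The thinned shares were low, 0.156% and 0.953%, beside 0 of 3144 and 0.187% of chondrocyte-like cells. Phagocyte markers summed to 13.8 and 171 in these cells, basophil markers to 0.528 and 1.11 and mast cell markers to 3.17 and 2.49. What the phagocyte markers contributed was not tested.

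Csf2rb2, whose product serves IL3 alone in the mouse, followed Csf2rb over the classes. It was at 92.8 and 656 in basophil-like, 304 and 571 in mast cell-like, 10.5 and 44.1 in endothelial-like and 47.1 and 50.8 in mononuclear phagocyte-like cells. The fibroblast markers given for Csf2rb in the control basophil-like and mast cell-like cells apply to these values too. The coding parts of the 2 genes were 93.0% identical. The last 500 bases, where a kit that reads the 3′ end puts most reads, were 76.3% identical and shared 0 of 410 stretches of 91 bases. Reads from the 3′ end can therefore be told apart, whereas 12.4% of such stretches in the coding part of Csf2rb cannot, and counts from there are uncertain.

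Csf3r, the receptor for CSF3, was found mainly in neutrophil-like cells, which were named without it. Neutrophil-like cells were at 445 in 4 control cells, from 6 UMIs, and at 1224 (1086 to 1375) in 72 ACD cells, from 284 UMIs. The log2 ratio of 1.46 (0.32 to 2.92) rests on those 4 control cells. In these the 8 chondrocyte markers summed to 30489.6 UMIs per 1000000, with 1 at 0, against 1332 in ACD, with none at 0, and 17835 in the chondrocyte-like cells of control, and the 8 neutrophil markers, none at 0, to 97329 and 90057. The part of the chondrocyte markers in the ratio was not tested. Neutrophil-like cells held 84.3% of the Csf3r UMIs of the ACD library. After thinning, 86.8% of the ACD cells deep enough had a UMI (94.4% unthinned), and 34 were too shallow. Monocyte-like cells of ACD were at 87.3, and mononuclear phagocyte-like cells as a whole at 1.57 and 15.5, from 1 and 36 UMIs. Endothelial-like cells were the main holders of Csf3 mRNA, and neutrophil-like cells the main holders of its receptor. After the filter on cells, the Csf3 level of endothelial-like cells was 149 in control and 152 in ACD. With all deposited barcodes, clustered anew, the log2 ratio of Csf3 was 0.90, and in venous-like cells alone it was -1.89. Neutrophil-like cells numbered 4 in control and 72 in ACD.

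**Figure D5:**
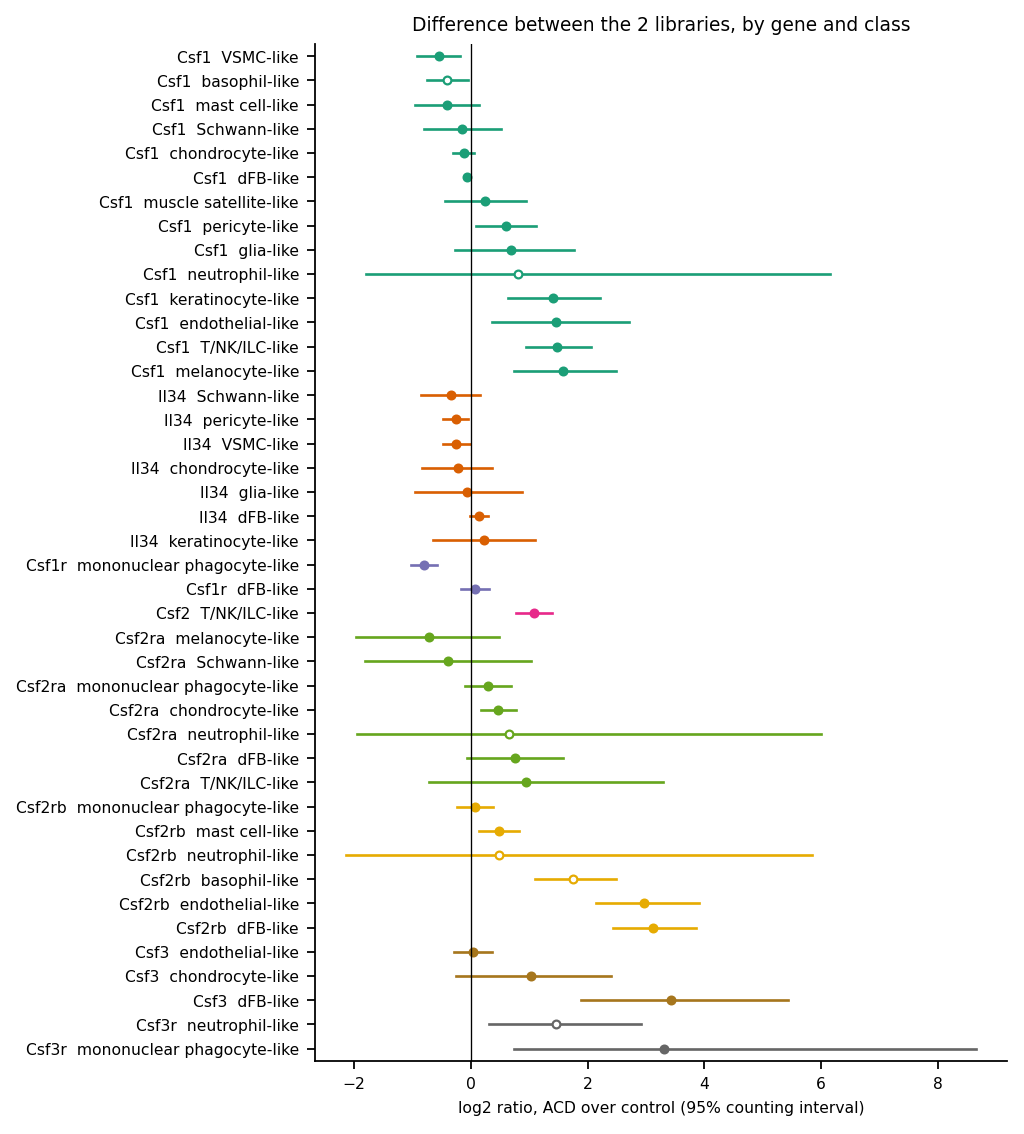
Points give the log2 ratio of the level in ACD over that in control (x axis) for the 42 pairs of a gene and a class with at least 20 UMIs, grouped by gene, with lines for the 95% counting interval and open points where a library had under 20 cells. Csf2rb was at 3.12 in dFB-like and 2.96 in endothelial-like cells, Csf3 at 3.44 in dFB-like cells, and Csf1r in mononuclear phagocyte-like cells was at -0.80.

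Across the 31 pairs of a class and a library with at least 20 cells, the genes most like each of the 8 in level were listed by Pearson's r of log2 values, as a description over classes that share a library. Neutrophil-like and basophil-like cells entered from the ACD library alone, as control had 4 and 9 of them. For a gene found mainly in a single class, r rests on the few pairs of that class. Csf2rb was most like Csf2rb2 (0.97), Fes (0.91) and Fcgr3 (0.91), and Csf2ra was most like Clec4a2 (0.91), which was also among the 3 for Csf1r (0.93). Csf3r was most like Retnlg (0.98), a neutrophil gene that served as a marker here. Csf3 was most like Hoxd10, Tie1 and Cldn5, each at 0.99, of which Tie1 and Cldn5 are endothelial markers. Csf2 was most like 2610318N02Rik (0.87), Fam78a (0.86) and Gzmc (0.84). Il34 was most like Egflam (0.94), Nr2f1 (0.94) and Pcdh19 (0.93), and Csf1, with the least alike neighbours, was most like Itga2b (0.84), Creb3l1 (0.74) and Slc41a3 (0.72).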

How the data were processed

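Single cells of 1 control and 1 ACD ear skin library were sequenced by the authors with a 10x 3′ v2 kit on a NovaSeq 6000. They aligned reads with Cell Ranger (3.0.2 in the methods, 3.1.0 in the file headers) to mm10, and deposited UMI counts per gene and barcode without normalization. Every value was computed from these deposited counts.

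Cells with over 200 and under 5000 genes, at most 25000 UMIs (printed in the methods as a lower limit and read as an upper one) and under 8% mitochondrial UMIs were kept, which removed 5.29% of control and 11.4% of ACD barcodes. Cells were scaled to 10000 UMIs, ln(1 + x) was taken, and the 2000 most variable genes, without the 8 genes and the gene lists, gave 30 components, 20 neighbors and Leiden clusters at resolution 1 with no batch correction (scanpy 1.11.5 and leidenalg 0.10.2, with igraph 0.11.9 and scikit-learn 1.9.0, under Python 3.11.15, with scipy 1.17.1 for intervals, numpy 2.4.6 and matplotlib 3.10.9). This gave 37 clusters, and 48 sub-clusters of 4 classes. A cluster took the class with the highest mean log2 fold of its markers if at least 3 of them were in 10% of its cells. It was left unnamed if markers of another class outnumbered its own among the 10 leading genes, or if the mean log2 fold was under 0 (for a sub-cluster, under 0.5). A cluster that held markers of an unrelated class was called mixed. The limits for naming were chosen with the clusters in view, and left 8 clusters and 15 sub-clusters unnamed and 1 and 7 mixed. No doublets were removed in the main setting, and Scrublet called 4.68% of control and 3.29% of ACD cells.

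UMIs were summed per library and class. Levels have exact Poisson intervals, ratios have intervals from the exact conditional binomial, and shares have Clopper-Pearson intervals, all at 95%. A count of 0 of n cells allows 3 cells. Calls past 2-fold used 10 UMIs per 1000000 added and genes with at least 50 UMIs. The text names the 8 genes, Csf2rb2, the genes of 6 fixed lists (44 genes) that were past 2-fold in the class described, Il3ra, Il5ra and Kitl from those lists also where they were not past 2-fold (chosen after their values were seen), 4 cytokines counted with Csf2, and the 3 genes most like each of the 8 in level among genes with at least 200 UMIs. The genes and lists were chosen with earlier results of these data known. A result of the gene lists in mononuclear phagocyte-like cells is not reported here. Steps were tested on simulated data. The 3′ UTRs and positions came from GENCODE M21 transcripts of GRCm38. The alternatives were other filters on cells, Scrublet calls removed, other resolutions, the 8 genes left in the clustering, classes by counts of markers, other scalings, 1 cell left out, thinning to 1000 UMIs and other limits on genes.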

Additional observations from a re-analysis of the deposited data

Results flagged for a closer look

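Csf1 differed between the libraries in opposite directions in different classes, with intervals of counting error on either side of 0. Its log2 ratio of ACD over control was 1.47 in T/NK/ILC-like, 1.45 in endothelial-like, 1.41 in keratinocyte-like, 1.57 in melanocyte-like and 0.59 in pericyte-like cells. It was -0.55 in VSMC-like, -0.42 in basophil-like and -0.063 in dFB-like cells. Fibroblast markers moved with it in some of these: they summed to 44065 UMIs per 1000000 in the 9 control and 4211 in the 270 ACD basophil-like cells, and to 13125 and 2604 in VSMC-like cells, and their part was not tested. The control level was 8.79 to 12.6 UMIs per 1000000 in the 4 classes with the highest ratios, and 275 in dFB-like cells. With 1 library in each group, the difference between classes was not tested.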

How the results depend on the processing

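Of 135 values of 12 results recomputed under the alternatives, 123 moved by less than the counting error and 12 by more, and 0 of the results whose interval left out 0 changed sign. The log2 ratio of Csf3 in endothelial-like cells was 0.39 without the cell with the most UMIs, 0.90 with all deposited barcodes and -1.89 in venous-like cells alone. In dFB-like cells, Csf1 was at -0.38 with cells gated on marker UMIs and -0.32 with unnamed clusters closest to dFB included, Il34 was at -0.050 with gates and -0.066 with all barcodes, and Csf3 was at 5.66 with all barcodes. Csf1r in mononuclear phagocyte-like cells was at -1.10 with gates. The share of ACD Csf2 UMIs in T/NK/ILC-like cells was 91.5% with gates, 80.7% with all barcodes and 93.1% with Scrublet calls removed. Csf3 in endothelial-like and Il34 in dFB-like cells thus had either sign, as had Il34 in keratinocyte-like and Csf2rb in mononuclear phagocyte-like cells, and the intervals of all 4 held 0. The cause was not tested. Over the alternatives, the log2 ratio lay between 0.83 and 1.33 for Csf2 in T/NK/ILC-like cells, 0.65 and 1.92 for Csf1 in endothelial-like cells, -0.037 and 0.26 for Csf2rb in mononuclear phagocyte-like cells, -0.24 and 0.52 for Il34 in keratinocyte-like cells and 0.83 and 2.24 for Csf3r in neutrophil-like cells. Thinned to 1000 UMIs, which leaves fewer molecules in each cell, the ACD shares were 3.01% for Csf2 in T/NK/ILC-like, 20.3% for Csf1 in dFB-like, and 17.1% for Csf1r and 10.8% for Csf2rb in mononuclear phagocyte-like cells. With 1 UMI per 1000000 added in place of 10, 407 genes were past 2-fold upward and 595 downward in T/NK/ILC-like, 262 and 76 in dFB-like and 354 and 245 in mononuclear phagocyte-like cells, and 144 were downward in endothelial-like cells. Leaving out shared barcodes, counting unnamed clusters as dFB-like and using venous-like cells alone were chosen after seeing the data. No paired analysis was possible because each group had 1 library.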
